A study of Apis mellifera with 12 samples.

Results

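Ovary activation in the honey bee (Apis mellifera) queen was followed through circular RNAs (circRNAs) by comparing the ovaries of normally egg-laying queens with those of virgin queens. These were 6 of the 12 libraries of the study, 3 laying and 3 virgin, and 3215 of its 20244 circRNAs passed a filter on low counts and were tested. Both groups were labelled as untreated. The other libraries came from queens caged for 7 days, whose laying was inhibited, and from queens released after caging and sampled on day 8, when they laid again; these 6 entered the fit, and so the filter, the scaling and the estimate of the spread, but not the contrast. The labels give no age in days, strain or colony, and no mating status beyond the word virgin. They do not say whether a sample is 1 queen or a pool, so p-values measure the spread between these samples. Virgin queens are by name unmated, and laying and virgin queens may also differ in age. Mating and age cannot be told apart from laying here.

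A queen's ovary is a bundle of ovarioles, tubes in which oocytes grow with the help of nurse cells that pass RNA and protein to them. In a virgin queen the ovarioles hold early stages, and after mating they fill with growing, yolk-loaded oocytes. A circRNA forms by back-splicing, in which a splice donor joins an acceptor that lies upstream of it in the same transcript. It has no free ends, so exonucleases spare it. An acceptor can be joined to several donors, and a donor to several acceptors, which gives families of circRNAs that share an end.

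A circRNA is measured here by reads over its back-splice junction. Levels are in CPM, counts per 1000000 circRNA reads of that library, so a level is a share and not an amount. In whole ovaries, fewer cells of a type and less RNA per cell cannot be told apart. No circRNA in the deposited table comes with a gene name, and no genome of its build (Amel_4.5) was used here, so circRNAs are named by their identifiers and no marker of the ovary or of another tissue was checked. Positions are as deposited; no source used here says whether a start is 0-based or 1-based. The laying libraries held 89106 to 173922 circRNA reads and the virgin libraries 66487 to 201414. The smallest count above 0 in any library was 2, which is 11.5 to 22.4 CPM in a laying library and 9.93 to 30.1 CPM in a virgin one. Levels below these are listed at 0, and 0 does not mean absence. Across the tested circRNAs, which are not independent replicates, log2(CPM + 10) correlated at 0.81 to 0.86 between laying libraries, at 0.80 to 0.87 between virgin libraries and at 0.60 to 0.67 between a laying and a virgin library.

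Many circRNAs differed between laying and virgin ovaries, in both directions. Higher in laying ovaries were 401 and lower were 330, together 22.7% of the 3215 tested (12.5% and 10.3%; edgeR quasi-likelihood test, Benjamini-Hochberg adjusted p under 0.05). Of the 1622 circRNAs listed in all 6 libraries, 230 rose and 219 fell, together 27.7%. The median size of these changes was 3.26-fold for the 230 and 3.44-fold for the 219, and changes over 8-fold numbered 21 and 8. No virgin library listed 75 of the 401, and no laying library listed 42 of the 330. Such circRNAs passed the filter through the group where they were high, the caged and released libraries, or both. For any that passed through the high group alone, such as ame_circ_0001442, being high there was a condition of being tested. Of the 3215, 9 were listed at 0 in all 6 libraries. Among all tested circRNAs, the 3 laying and 3 virgin libraries did not overlap for 1315 (40.9%), of which 679 were called. The share called grew with the level: of the 100 most abundant circRNAs 61 were called, 38 higher and 23 lower, against 10.2% of the 1715 least abundant, where counts are small. The balance of the directions depended on the scaling, the filter and the libraries fitted. With only the laying and virgin libraries, 2294 circRNAs were tested, of which 366 were higher and 354 lower. Without a filter, 357 were higher and 216 lower. With library totals in place of TMM factors, 360 were higher and 416 lower, and the median log2 fold change moved by -0.15.

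**Figure D1:**
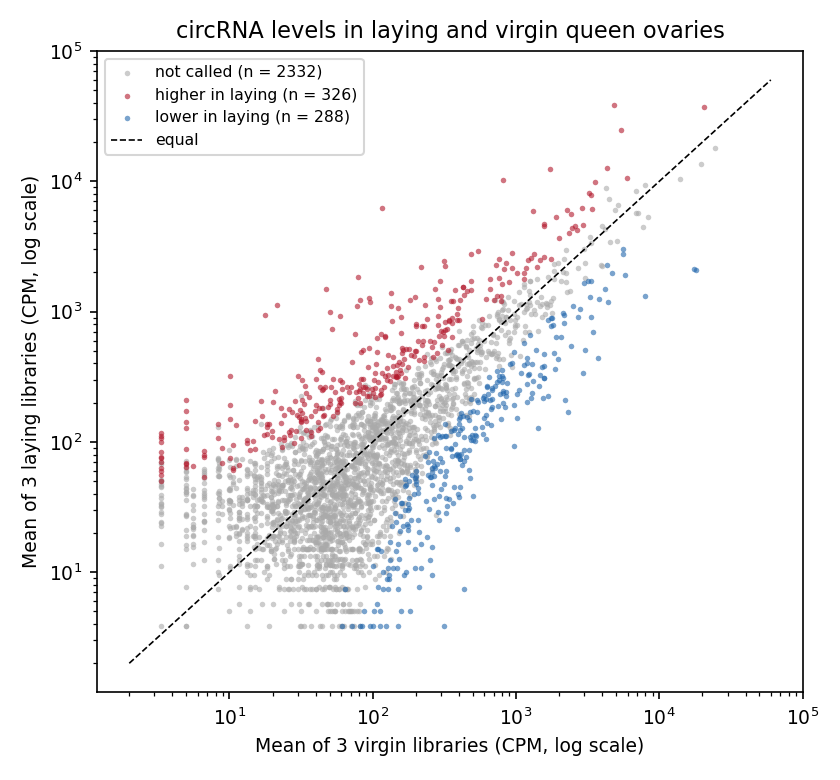
Mean level of each tested circRNA in the 3 laying libraries (vertical axis, CPM, log scale) against the 3 virgin libraries (horizontal axis, CPM, log scale), for the 2946 listed in both groups. Red points (326) were higher and blue points (288) lower in laying ovaries, grey points were not called, and called circRNAs lie on both sides of the dashed line of equal levels over the whole range.

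Gains in library share were held by fewer circRNAs than losses. Summed over all circRNAs with a higher mean in laying ovaries, the gain was 38.2% of the reads. Called or not, the 10 circRNAs with the largest gains held 31.4% of the total gain, while the 10 with the largest losses held 17.6% of the total loss. These 10 losing circRNAs include uncalled ones, such as ame_circ_0017693, and are not the same 10 as those named below. The circRNAs called higher took 43.7% of reads in laying ovaries and 14.5% in virgin ovaries. Those called lower took 7.4% in laying and 27.2% in virgin ovaries. These sums describe the circRNAs that the test chose and are no further test. Called circRNAs whose laying and virgin libraries did not overlap supplied the 10 gains and 10 losses named next. Their lack of overlap was thus set by the choice.

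The largest gain was that of ame_circ_0011734, a circRNA spanning 16231 nt on the plus strand of LG2 (4758065 to 4774296). It had 27331, 34952 and 52926 CPM in the laying libraries, against 2060, 8618 and 3837 CPM in the virgin libraries. It was the most abundant circRNA of laying ovaries by mean and ranked 22 in virgin ovaries. The change was 9.30-fold (log2 3.22, SE 0.35; edgeR, adjusted p = 1.70e-06). Leaving out virgin replicate 2, the highest of the virgin libraries, gave a log2 value of 3.87.

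A second circRNA from the same acceptor, ame_circ_0011735, reaches a donor farther downstream and spans 21910 nt (LG2, 4758065 to 4779975). It had 8021, 10913 and 11761 CPM in laying against 467, 1068 and 890 CPM in virgin libraries, a 14.7-fold rise (log2 3.88, SE 0.30; edgeR, adjusted p = 4.01e-08). Upstream on the same strand, ame_circ_0011720 spans only 180 nt (4699241 to 4699421). It had 9692, 13121 and 14488 CPM in laying against 1216, 2602 and 1326 CPM in virgin libraries, an 8.37-fold rise. The long ame_circ_0011726 (58985 nt, 4699241 to 4758226) starts at the same acceptor as ame_circ_0011720. Its laying libraries had 5817, 5353 and 6666 CPM and its virgin libraries 824, 2286 and 814 CPM, with a log2 fold change of 2.41, or 3.01 without virgin replicate 2. In all of these the laying libraries lay above every virgin library, as the choice required, and virgin replicate 2 was the highest virgin library.

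The steepest gain among abundant circRNAs was that of ame_circ_0011802, a 356 nt circRNA farther along LG2 (4820556 to 4820912, plus strand). It had 6814, 6566 and 5185 CPM in laying libraries, against 19.9, 256 and 75.6 CPM in virgin libraries. Its mean rank was 20 in laying and 1121 in virgin ovaries. The fitted change was 75.2-fold (log2 6.23, SE 0.59; edgeR, adjusted p = 2.92e-07), with a log2 value of 5.53 without virgin replicate 1 and 7.32 without virgin replicate 2.

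The other circRNAs among the 10 largest gains lay elsewhere in the genome. The circRNA ame_circ_0006312 (392 nt, LG15, 5011343 to 5011735) had 33073, 28662 and 12233 CPM in laying against 5913, 6498 and 3685 CPM in virgin libraries. Laying replicate 3 was well below the other laying libraries but above all virgin ones (5.18-fold). On the unplaced scaffold GL630373.1, ame_circ_0000149 (555 nt) had 37623, 34084 and 39975 CPM in laying against 18728, 21764 and 20937 CPM in virgin libraries. It ranked 2 in both groups and was 2.04-fold higher (log2 1.03, SE 0.21; edgeR, adjusted p = 0.00135). The laying libraries had 13021, 12155 and 12917 CPM of ame_circ_0002247 (2008 nt, LG11), and the virgin libraries had 4081, 4497 and 4315 CPM (3.31-fold). Among the 10 largest gains were also ame_circ_0019210 (14061 nt, LG8, 3.10-fold) and ame_circ_0004211 (601 nt, LG13, 2.78-fold).

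On the losing side, 2 circRNAs stood far above the rest. The first, ame_circ_0017314 (18788 nt, LG7, 1604032 to 1622820, plus strand), had 2076, 2564 and 1616 CPM in laying against 18668, 15808 and 19493 CPM in virgin libraries. It ranked 77 in laying and 4 in virgin ovaries and was 7.69-fold lower (log2 -2.94, SE 0.28; edgeR, adjusted p = 4.00e-07). The other, ame_circ_0008042 (687 nt, LG1, 1120279 to 1120966, plus strand), had 2159, 1938 and 2301 CPM in laying against 18405, 15973 and 18033 CPM in virgin libraries. It ranked 75 in laying and 5 in virgin ovaries and was 7.38-fold lower (log2 -2.88, SE 0.25; edgeR, adjusted p = 1.22e-07). The laying libraries lay far below every virgin library for both.

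The other large losses were of short circRNAs. The 342 nt ame_circ_0006273 (LG15) had 1252, 1276 and 1414 CPM in laying against 8177, 7340 and 8152 CPM in virgin libraries (5.40-fold lower). For ame_circ_0004003 (242 nt, LG12) the laying libraries had 427, 391 and 505 CPM and the virgin libraries 3063, 4602 and 3618 CPM (7.55-fold lower). The 580 nt ame_circ_0002658 (LG11) was 4.47-fold lower, ame_circ_0011537 (645 nt, LG2) 3.36-fold and ame_circ_0002745 (1375 nt, LG11) 2.66-fold. The virgin libraries spread most for ame_circ_0002974 (401 nt, LG11), with 352, 443 and 213 CPM in laying against 1663, 2858 and 4265 CPM in virgin libraries (7.44-fold lower). The smallest folds of the 10 were those of ame_circ_0007129 (409 nt, LG16, 2.49-fold) and ame_circ_0010778 (633 nt, LG2, 2.13-fold). Of the 10 losing circRNAs named here 9 spanned 242 to 1375 nt. Of the 10 gaining ones named, 4 spanned over 10000 nt and 4 lay in the LG2 region between 4622669 and 4807227.

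**Figure D2:**
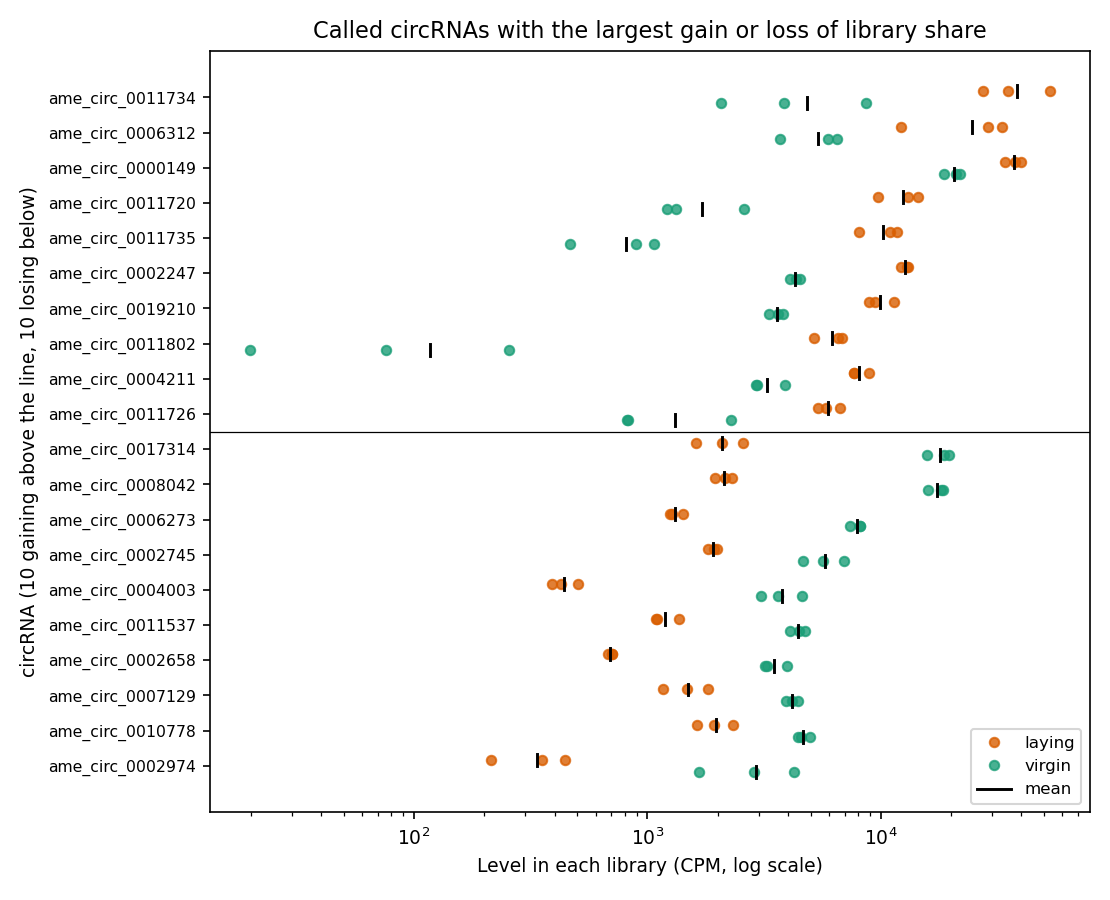
Level of the 10 circRNAs with the largest gain in mean CPM (above the line) and the 10 with the largest loss (below it), in CPM on a log scale. All 20 were taken from called circRNAs whose groups do not overlap, so the lack of overlap was set by the choice. Each dot is 1 library (orange laying, green virgin) and black ticks are group means. The virgin levels of ame_circ_0011802 spread from 19.9 to 256 CPM.

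Not every abundant circRNA changed. Of the 10 with the highest mean over both groups, 6 were called and 4 were not. The circRNA that led the virgin ovaries, ame_circ_0017693 (8243 nt, LG7), had 21851, 17565 and 14567 CPM in laying against 27471, 18951 and 26705 CPM in virgin libraries, so the groups overlapped (log2 -0.29, SE 0.31; edgeR, adjusted p = 0.533). For ame_circ_0009157 (820 nt, LG1) all laying libraries, at 11836, 14443 and 14264 CPM, lay below the virgin libraries at 19472, 21523 and 17554 CPM. Its log2 difference of -0.36 was not called by edgeR (adjusted p = 0.217), but it was called with a stricter filter in edgeR (adjusted p = 0.0495) and by DESeq2 (adjusted p = 0.0244). The groups overlapped for ame_circ_0013256 (245 nt, LG4), with 8388, 9901 and 13164 CPM in laying against 10913, 18425 and 12811 CPM in virgin libraries. For ame_circ_0004652 (877 nt, LG13) the laying libraries had 9602, 8590 and 9786 CPM and the virgin libraries 8748, 7641 and 7623 CPM. Of the 10 top-ranked circRNAs of each group 4 were shared, as were 65 of the top 100 and 356 of the top 500.

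Laying libraries were more concentrated than virgin libraries. The 10 most abundant circRNAs of each library took 18.6%, 18.7% and 19.7% of its reads in laying ovaries and 15.1%, 14.4% and 14.7% in virgin ovaries. The effective number of circRNAs (the inverse Simpson index, the number of equally abundant circRNAs that would give the same concentration) was 160, 164 and 134 in laying libraries and 251, 264 and 254 in virgin libraries. For both measures the groups did not overlap (differences of 4.28 percentage points and -104). The exact two-sided permutation test gave p = 0.1 for each, the smallest that 3 libraries against 3 allow (0.1 after adjustment over 5 library-level measures), so this design cannot reach 0.05. Thinning all 6 libraries to 66487 reads left the differences at 4.09 percentage points and -100.2. Without the LG2 region between 4622669 and 4807227 they were 2.26 percentage points and -73.0, still with no overlap. Fewer circRNAs were listed in the laying libraries after thinning, 4281, 4466 and 3559 against 5809, 4059 and 5130 in virgin libraries, but these ranges overlapped.

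**Figure D3:**
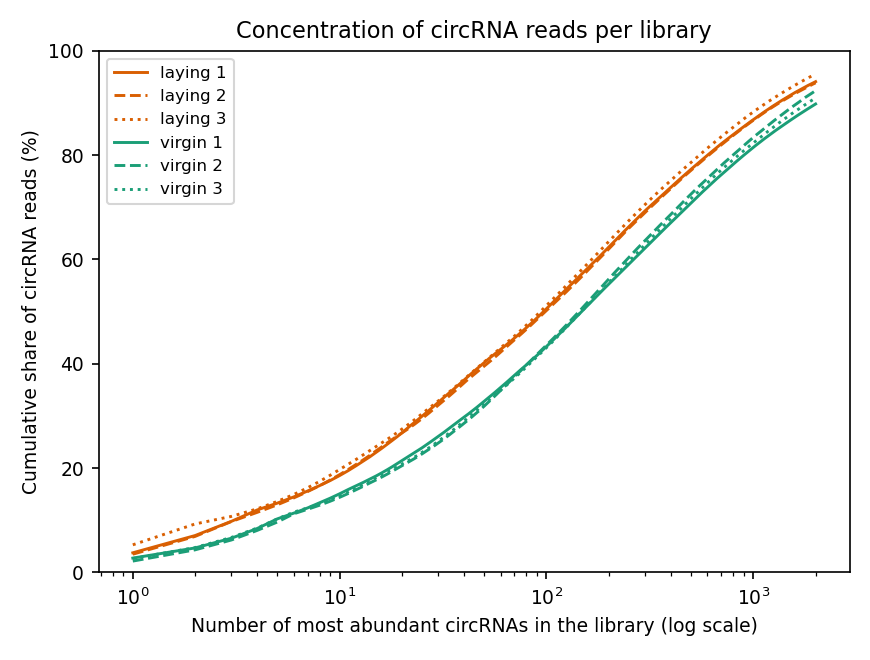
Cumulative share of circRNA reads (%, vertical axis) held by the most abundant circRNAs of a library (number on the horizontal axis, log scale), 1 line per library, orange for laying and green for virgin. All 3 laying lines run above the virgin lines: at 100 circRNAs they are at 50.2% to 51.2%, against 43.1% to 43.6% for the virgin libraries.

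Apart from abundance, the largest fold changes among circRNAs listed in all 6 libraries were found at moderate levels. After ame_circ_0011802, the steepest rise was that of ame_circ_0000647 (955 nt, scaffold GL634653.1), with 1267, 1679 and 1537 CPM in laying against 19.9, 30.1 and 92.3 CPM in virgin libraries. The log2 value was 5.15, or 6.03 without virgin replicate 3. The laying libraries had 1672, 1788 and 2110 CPM of ame_circ_0019528 (395 nt, LG9), and the virgin libraries had 79.4, 105 and 50.4 CPM (26.6-fold). The others were ame_circ_0011737 (39573 nt, LG2, 19.3-fold), with a log2 value of 4.27, or 5.12 without virgin replicate 2, and ame_circ_0001519 (332 nt, LG10, 18.7-fold). For ame_circ_0001519, laying replicates 1 to 3 had 1402, 1598 and 662 CPM. The steepest fall was that of ame_circ_0018906 (2018 nt, LG8), with 30.0, 11.5 and 22.4 CPM in laying against 367, 391 and 411 CPM in virgin libraries (16.3-fold lower). The 11.5 CPM are 2 reads. For ame_circ_0004807 (247 nt, LG13) the laying libraries had 90.0, 172 and 247 CPM and the virgin libraries 1887, 2828 and 2149 CPM (12.1-fold lower). Falls of 10.5-fold, 10.2-fold and 9.59-fold followed for ame_circ_0003445 (5394 nt, LG12), ame_circ_0018341 (4345 nt, LG8) and ame_circ_0014448 (289 nt, LG4).

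The direction of change went with the span, the distance between the back-spliced ends. Of the 637 tested circRNAs spanning up to 500 nt, 53 rose (8.32%) and 107 fell (16.8%) in laying ovaries. Of the 982 over 500 and up to 2000 nt, 128 rose and 110 fell. Over 2000 and up to 10000 nt, 126 of 949 rose and 73 fell, and over 10000 nt 94 of 647 rose (14.5%) and 40 fell (6.18%). The median log2 fold change was -0.42, -0.0025, 0.08 and 0.20 in these 4 classes, against 0 over all tested circRNAs. The circRNAs that rose had a median span of 2440 nt and those that fell 976.5 nt, against 1961 nt over all tested. Among circRNAs listed in all 6 libraries the counts were 34 higher and 72 lower up to 500 nt, and 47 higher and 21 lower over 10000 nt. A span includes introns, so it is not the length of the circle.

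The split of the calls held with 1 region or 1 library left out. Leaving out the 31 tested circRNAs of the LG2 region between 4622669 and 4807227, which had the most reads of any locus, left 51 higher and 107 lower up to 500 nt, and 79 higher and 40 lower over 10000 nt. Falls outnumbered rises up to 500 nt, and rises outnumbered falls over 10000 nt, in each of 15 settings, which include library totals, DESeq2 and the leaving out of each laying or virgin library. Between 500 and 2000 nt, falls outnumbered rises in 1 of the 15.

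The read share of long circRNAs rested largely on that LG2 region, in contrast to the calls. CircRNAs spanning over 10000 nt held 20.2%, 20.4% and 21.4% of the reads of the laying libraries, against 14.6%, 14.5% and 14.6% in virgin libraries. CircRNAs up to 500 nt held 22.1%, 22.7% and 22.2% in laying and 23.4%, 27.3% and 24.6% in virgin libraries. The read-weighted median span was 1637, 1582 and 1535 nt in laying libraries and 1293, 1085 and 1201 nt in virgin libraries. The groups did not overlap in any of the 3 measures, with an exact permutation p = 0.1 for each. CircRNAs over 10000 nt in the LG2 region alone took 4.92%, 6.0% and 8.11% of laying reads, against 0.394%, 1.39% and 0.638% of virgin reads. Those outside it took 15.3%, 14.4% and 13.3% of all reads in laying and 14.2%, 13.1% and 14.0% in virgin libraries, and these overlapped. With the region left out of the totals as well, the shares over 10000 nt were 16.4%, 15.8% and 14.9% in laying and 14.4%, 13.4% and 14.1% in virgin libraries, so the difference of 6.07 percentage points became 1.72. The median spans were then 1339, 1272 and 1201 nt in laying and 1268, 1061 and 1190 nt in virgin libraries and overlapped, and the difference in the share up to 500 nt was -2.17 percentage points, against -2.75 before. The shares between 2000 and 10000 nt were 27.0%, 26.8% and 25.3% in laying and 28.2%, 25.1% and 26.7% in virgin libraries and overlapped. In caged libraries the mean share over 10000 nt was 22.3%, and in released libraries it was 19.9%.

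**Figure D4:**
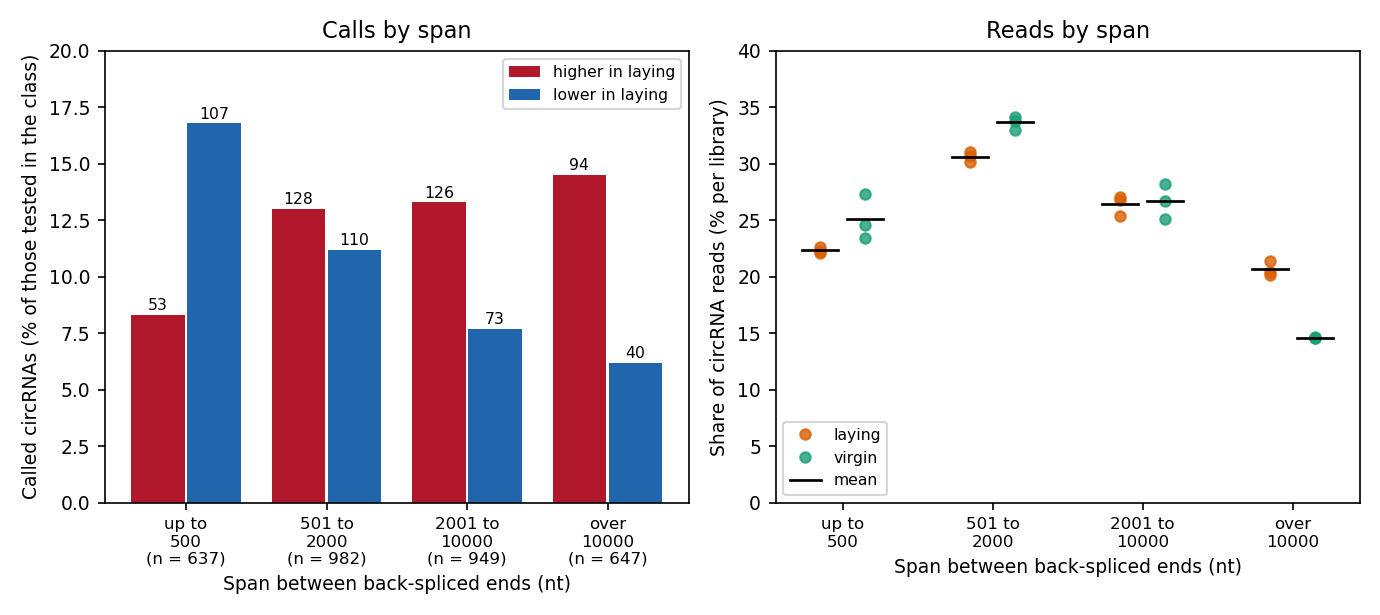
Left, percentage of tested circRNAs called higher (red) or lower (blue) in laying ovaries in 4 classes of span, with the number called above each bar. Right, share of circRNA reads in each class (%), 1 dot per library (orange laying, green virgin) with the group mean as a black line; the share over 10000 nt is 20.2% to 21.4% in laying and 14.5% to 14.6% in virgin libraries, and 14.9% to 16.4% in laying and 13.4% to 14.4% in virgin libraries with the LG2 region between 4622669 and 4807227 left out.

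The called circRNAs named next have the longest and shortest spans at 100 CPM or more in the higher group. The longest span tested was 99048 nt. No source used here says whether the calling program limited the span, so these are extremes of the listed circRNAs only. The longest circRNA that rose, ame_circ_0011729 (98397 nt, LG2, 4699241 to 4797638), had 150, 138 and 146 CPM in laying libraries and was listed at 0 in all virgin libraries. Next came ame_circ_0007767 (92658 nt, LG16), with 922, 736 and 359 CPM in laying against 134, 0 and 92.3 CPM in virgin libraries. The log2 value was 3.05, or 3.74 without virgin replicate 1. The shortest that rose, ame_circ_0001011 (151 nt, LG10), had 2376, 3082 and 3288 CPM in laying against 288, 872 and 479 CPM in virgin libraries (6.35-fold), followed by ame_circ_0011720. The longest that fell, ame_circ_0008870 (79509 nt, LG1) and ame_circ_0001442 (74412 nt, LG10), were listed at 0 in all laying libraries. In virgin libraries ame_circ_0008870 had 84.4, 226 and 67.2 CPM, and ame_circ_0001442, which DESeq2 did not call, had 159, 196 and 92.3 CPM. All caged and released libraries also listed ame_circ_0001442 at 0, so it passed the filter only through the virgin libraries, where it was high. The shortest that fell were ame_circ_0016351 (164 nt, LG6) and ame_circ_0006126 (173 nt, LG15). The first had 67.5, 23.0 and 0 CPM in laying against 228, 135 and 143 CPM in virgin libraries and was not called in 4 of 6 fits that left out 1 library (log2 -2.26, or -3.26 without laying replicate 1). The second had 630, 604 and 685 CPM in laying against 2348, 2046 and 1763 CPM in virgin libraries (2.90-fold lower).

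Sharing an end was common among the tested circRNAs. An acceptor was shared by 2 or more in 552 groups holding 1380 circRNAs, the largest with 14, and a donor in 540 groups holding 1280, the largest with 7. CircRNAs with both ends shared rose more often than they fell, 115 against 63 of 658, and those with no shared end fell more often, 155 against 110 of 1213. The counts kept these directions in each of the 15 settings. For circRNAs with no shared end the margin was thin in some of them. It was 97 lower against 96 higher without a filter, and 107 against 102 without laying replicate 1. The classes also differ in span, with a median of 8166.5 nt where both ends were shared and 1040 nt where neither was, and the part of the span in this difference was not tested. Where 2 circRNAs with a common acceptor were both called, they changed in the same direction in 139 of 146 pairs (95.2%), and with a common donor in 102 of 109 pairs (93.6%). Pairs from 1 large group are not independent of each other. On LG2 the acceptor at 4699241 had 7 rising members and the donor at 4797638 had 5, with none falling at either. The share of agreeing pairs was computed neither without the LG2 region nor for called circRNAs with no common end. Of all 731 called circRNAs, 54.9% were higher.

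Members of a group still changed by unequal amounts in a part of the groups. In edgeR's test of unequal change within a group, 44 of 552 acceptor groups (7.97%) and 33 of 540 donor groups (6.11%) passed (Benjamini-Hochberg adjusted p under 0.05). In 14 of the 44 and 17 of the 33 the leading circRNA of laying ovaries was not that of virgin ovaries; over all groups the leader differed in 114 of 552 acceptor and 120 of 540 donor groups. Calls in both directions occurred in 4 acceptor groups and 6 donor groups. In the 14 pairs called in opposite directions, the longer circRNA was the higher in 8 and the lower in 6. These counts changed between fits: with 1 laying or virgin library left out, 6 to 24 acceptor groups and 13 to 25 donor groups passed. The 4 acceptor and 4 donor groups with the smallest p, described next, passed in each of the 11 or 12 alternatives that tested them. Shares within a group are of the reads of its tested members. All of these ends but the LG1 donor at 16485531 had further listed members that did not pass the filter.

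The clearest change of partner was at the acceptor on the minus strand of LG1 at position 18167182. Of the reads of its 3 tested circRNAs, ame_circ_0008724 (5899 nt) took 89.8%, 93.3% and 91.0% in laying against 21.9%, 28.6% and 17% in virgin libraries. Its partner ame_circ_0008722, which is only about 1 kb longer (6975 nt), took 8.76%, 4.24% and 8.99% in laying against 64.0%, 49.0% and 62.8% in virgin libraries. The level of ame_circ_0008724 was 922, 885 and 909 CPM in laying and 124, 211 and 134 CPM in virgin libraries, and that of ame_circ_0008722 was 90.0, 40.2 and 89.8 CPM in laying and 362, 361 and 495 CPM in virgin libraries. The group summed to 991 CPM in laying and 697 CPM in virgin ovaries. The group's adjusted p for unequal change was 7.74e-07 (edgeR), and 0.000126 at most in the 12 alternatives.

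At the plus-strand acceptor of LG2 at 4940177, 2 circRNAs were tested. Of these, virgin libraries listed only ame_circ_0011806 (1564 nt), with 119, 150 and 193 CPM. Laying libraries had 22.5, 69.0 and 56.1 CPM of ame_circ_0011806, and 112, 97.7 and 123 CPM of ame_circ_0011809 (7794 nt), which was listed at 0 in all virgin libraries. The longer circRNA took 83.3%, 58.6% and 68.8% of the group's reads in laying libraries (edgeR, adjusted p = 6.81e-06 for unequal change). The fall of ame_circ_0011806 by itself did not pass (edgeR, adjusted p = 0.0599; 0.0345 with library totals).

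At the plus-strand acceptor of LG7 at 10883666, the 232 nt ame_circ_0017010 took 33.7%, 57.9% and 34.5% of the reads in laying against 83.3%, 95.7% and 92.5% in virgin libraries. Its level was 262, 529 and 213 CPM in laying and 968, 1354 and 1352 CPM in virgin libraries. Both long partners rose: ame_circ_0017011 (11225 nt) had 187, 167 and 191 CPM in laying against 34.8, 0 and 33.6 CPM in virgin libraries. The longest, ame_circ_0017012 (12068 nt), had 330, 218 and 213 CPM in laying against 159, 60.2 and 75.6 CPM in virgin libraries, and was not called in 3 of 6 fits that left out 1 library (log2 2.02 without virgin replicate 1).

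The acceptor at 4699241 on LG2 served 9 tested circRNAs, of which 7 rose and none fell. Here the order of the 2 shortest changed: ame_circ_0011720 took 40.5%, 42.2% and 46.3% of the group's reads in laying against 14.7%, 30.4% and 19.7% in virgin libraries. The next in length, ame_circ_0011722 (2482 nt), took 24.7%, 30.5% and 21.0% in laying against 72.6%, 36.5% and 64.5% in virgin libraries, although its own level, 5922, 9470 and 6565 CPM in laying and 5988, 3128 and 4340 CPM in virgin libraries, did not pass the test (edgeR, adjusted p = 0.0964; 0.00158 without a filter and 0.0359 with only the laying and virgin libraries). Between 50702 and 98397 nt, 6 further circRNAs rose; of these, ame_circ_0011724 and ame_circ_0011729 were listed at 0 in all virgin libraries. The 29976 nt ame_circ_0011723 was listed in 1 library of each group.

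Among donor groups, the smallest p was at 4458980 on the minus strand of LG16. The 515 nt ame_circ_0007233 took 5.65%, 8.89% and 9.49% of the reads in laying against 48.8%, 46.3% and 44.3% in virgin libraries. The 6030 nt ame_circ_0007234 took 86.7%, 77.7% and 85.0% in laying against 43.9%, 48.1% and 46.7% in virgin libraries. In levels, ame_circ_0007233 had 172, 236 and 269 CPM in laying against 899, 752 and 915 CPM in virgin libraries, a 3.44-fold fall. The level of ame_circ_0007234 was 2646, 2058 and 2413 CPM in laying and 809, 782 and 965 CPM in virgin libraries, a 3.09-fold rise (edgeR, adjusted p = 1.62e-06 for unequal change). The 9318 nt ame_circ_0007236 had a share of 8.87% ± 4.1 in laying and 7.26% ± 1.69 in virgin ovaries (SD, n = 3 each).

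The donor at 16485531 on the minus strand of LG1 showed the reverse order of length. There the 608 nt ame_circ_0008491 took 78.6%, 81.3% and 83.3% of the reads in laying against 11.5%, 0% and 0% in virgin libraries (log2 4.24, or 7.32 without virgin replicate 1). The 6309 nt ame_circ_0008492 had 45.0, 34.5 and 22.4 CPM in laying against 114, 256 and 100.7 CPM in virgin libraries. These are few reads, and the call of ame_circ_0008492 was lost in 5 of 6 fits that left out 1 library, whereas the test of unequal change passed in each (highest adjusted p 0.00130 by edgeR in the 11 alternatives).

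In 2 donor groups the same member had the highest mean level in both states. At 21015280 on the minus strand of LG1, ame_circ_0009096 (6112 nt) had 712, 546 and 483 CPM in laying against 804, 421 and 781 CPM in virgin libraries. Its shorter partners ame_circ_0009093 (1737 nt) and ame_circ_0009094 (3809 nt) rose 7.12-fold and 12.9-fold, the second with a log2 value of 4.46 without virgin replicate 2 and 3.06 without virgin replicate 3. The share of ame_circ_0009096 was 58.5% ± 11.4 of the reads in laying and 91.5% ± 8.12 in virgin ovaries (SD, n = 3 each). In laying replicate 3 it was 46.2%, against 26.9% for each of its partners. At 1622820 on the plus strand of LG7, the donor of the strongly lower ame_circ_0017314 also served ame_circ_0017318 (525 nt). That circRNA had 352, 299 and 258 CPM in laying against 298, 165 and 369 CPM in virgin libraries and the groups overlapped (log2 0.24, SE 0.35; edgeR, adjusted p = 0.671). The third member, ame_circ_0017310 (24994 nt), had 0, 28.7 and 0 CPM in laying against 189, 120 and 185 CPM in virgin libraries, and its call was lost in 4 of 6 fits that left out 1 library (log2 -2.94 without laying replicate 1 and -7.42 without laying replicate 2).

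**Figure D5:**
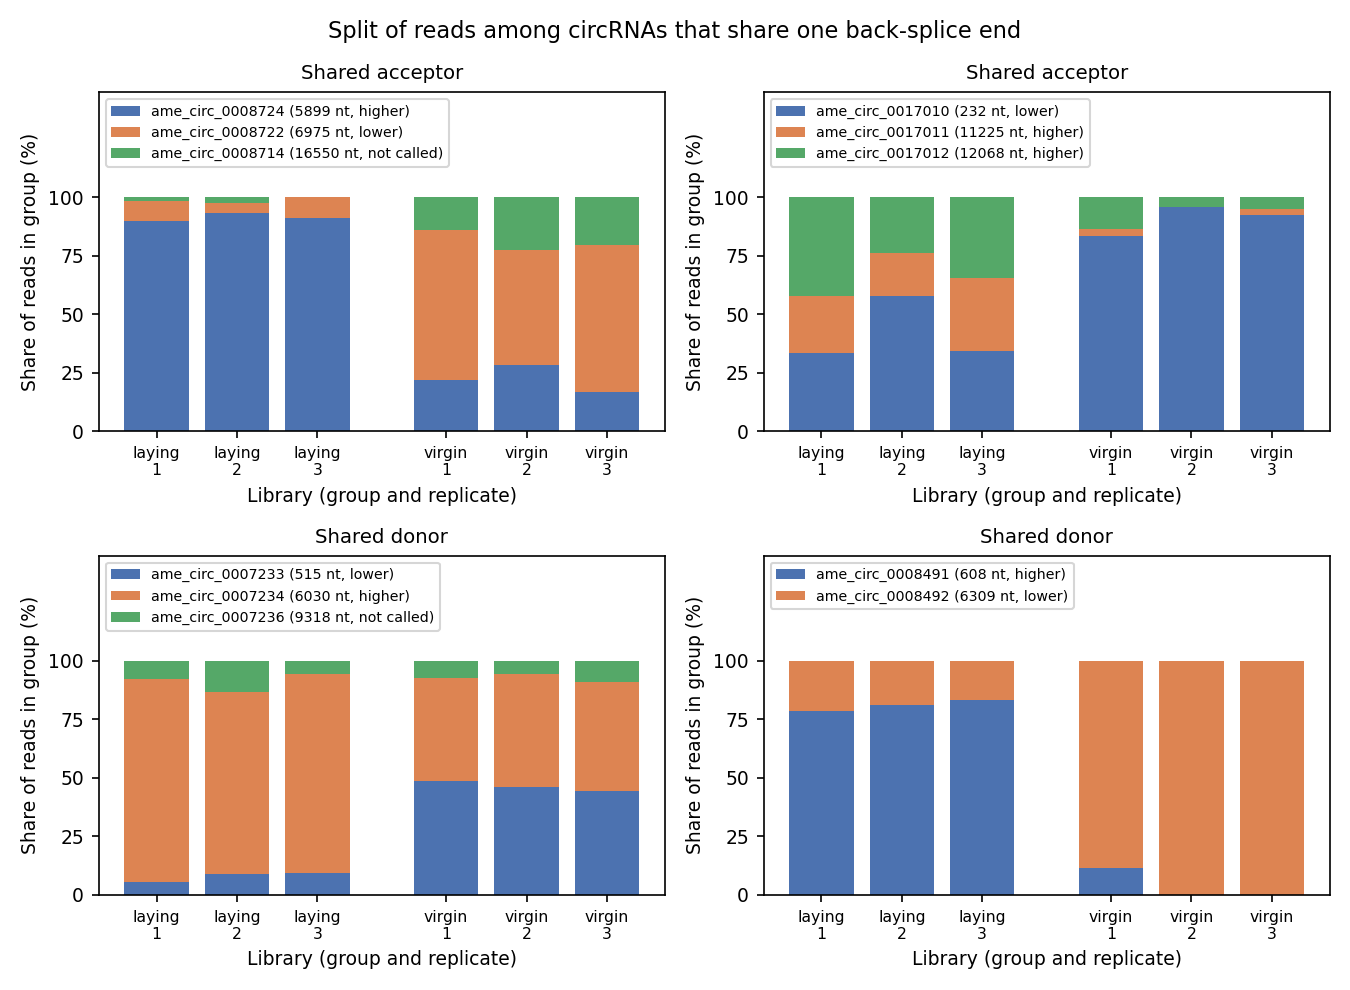
Share of the reads of a group (%, vertical axis) taken by each of its tested circRNAs in the 3 laying (left) and 3 virgin (right) libraries. Shown are 2 groups with a common acceptor and 2 with a common donor. Colours mark circRNAs in order of span, given with the call in each legend. The 4 groups are among those with the smallest p for unequal change, so a differing split of reads was set by the choice. The share of ame_circ_0008724 was 89.8% to 93.3% in laying against 17% to 28.6% in virgin libraries.

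Beyond shared ends, the tested circRNAs with overlapping spans on a strand formed 1654 loci. Of the 105 loci with 2 or more called circRNAs, 91 moved in a single direction and 14 held calls in both. The share that unrelated circRNAs would give was not computed. The locus of these 14 with the most reads lies on the minus strand of LG8 (8546045 to 8600528) and was summed at 31929 ± 4171 CPM in laying and 15839 ± 649 CPM in virgin ovaries (SD, n = 3 each). In it ame_circ_0019210 had 11372, 8912 and 9438 CPM in laying against 3312, 3625 and 3811 CPM in virgin libraries. The lower ame_circ_0019200 (8106 nt) had 322, 305 and 314 CPM in laying against 705, 767 and 487 CPM in virgin libraries, and was not called in 5 of 6 fits that left out 1 library.

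The second such locus, on the plus strand of LG3 (1090193 to 1190378), held the largest acceptor group. From the acceptor at 1091330, ame_circ_0012223 (49402 nt) rose 2.04-fold, with 7076, 5566 and 5869 CPM in laying against 3163, 4031 and 3022 CPM in virgin libraries. The 243 nt ame_circ_0012217 from the same acceptor fell 3.38-fold, with 165, 121 and 269 CPM in laying against 645, 827 and 579 CPM in virgin libraries. Both calls held in each fit that left out 1 library, and the 14 circRNAs of the acceptor passed the test of unequal change (edgeR, adjusted p = 0.0155).

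Of the 4 loci with the most reads among the 14, the other two lie on LG1. Between 18840491 and 18865783, ame_circ_0008772 (221 nt) had 1454, 1679 and 2009 CPM in laying against 3103, 3880 and 3098 CPM in virgin libraries (1.74-fold lower; not called without laying replicate 1). In the same locus ame_circ_0008778 (25280 nt) had 165, 172 and 135 CPM in laying against 39.7, 60.2 and 58.8 CPM in virgin libraries (3.41-fold higher; not called in 3 of 6 such fits). Between 24985931 and 25039700, ame_circ_0009575 (31978 nt) had 120, 57.5 and 168 CPM in laying against 303, 436 and 445 CPM in virgin libraries (3.14-fold lower; not called without laying replicate 2). The higher ame_circ_0009561 (3830 nt) had 1837, 1610 and 1930 CPM in laying against 1062, 933 and 1419 CPM in virgin libraries, was not called in any of the 6 such fits and was not called with library totals.

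Caged and released ovaries, which were in the fit but not in the contrast that called circRNAs, stood nearer to laying than to virgin ovaries for most of them. The mean level (log2 of CPM + 10) was nearer to laying for 87.4% of the 731 in caged and 89.2% in released ovaries, against 64.5% and 65.5% of the tested circRNAs that were not called. Of the 20 called circRNAs named above for the largest gains and losses, 19 in caged and 20 in released ovaries were nearer to laying. In caged and released ovaries ame_circ_0017314 averaged 2446 and 2063 CPM, and ame_circ_0008724 averaged 603 and 609 CPM.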

How the data were processed

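The authors deposited a table of circRNAs with positions and strands, read counts per library (whole numbers) and columns headed TPM; recomputing showed that the deposited columns hold CPM, a count per 1000000 circRNA reads (largest difference 4.989e-06). Per the labels' protocols, 5 µg of RNA underwent rRNA depletion and RNase R digestion, was made into directional libraries and sequenced as 150 bp pairs, with Amel_4.5 as the genome. The submitters' processing notes name Bowtie; no source used here names the program that called circRNAs.

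Counts of all 12 libraries were fitted with edgeR 4.0.16 in R 4.3.3 (TMM, quasi-likelihood F test, contrast laying minus virgin, call at adjusted p under 0.05) after filterByExpr (minimum count 5, minimum total 15). Sharing groups were tested with edgeR's diffSpliceDGE. SE is the log2 change divided by the square root of F. The acceptor is the start on the plus strand and the end on the minus strand. Loci were joined with GenomicRanges 1.54.1. Scripts were tested on simulated data. Fold changes use TMM and so differ from ratios of CPM. Depth and spread between replicates limit precision.

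Named circRNAs follow a rule: the 10 largest gains and losses in mean CPM and the 5 largest folds per direction among called circRNAs without overlap between groups, the 10 most abundant, the 2 longest and shortest per direction at 100 CPM or more, the 4 acceptor and 4 donor groups with the smallest p, and the leading calls of the 4 largest loci with both directions. The comparison, rule and lists were chosen with earlier results of these data known. Alternatives were other scalings and filters, DESeq2, the laying and virgin libraries alone, a replicate block and leaving out each library. Same-numbered libraries are not stated to be paired.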

Additional observations from a re-analysis of the deposited data

How the results depend on the processing

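Laying and virgin ovaries gave 731 calls (401 higher, 330 lower), and 282 to 378 higher and 225 to 291 lower with 1 library left out; without a filter 216 were lower. Acceptor groups with unequal change numbered 44, and 6 to 24 with 1 library left out (without laying replicates 1, 2 and 3 they numbered 6, 9 and 17, and without virgin replicates 1, 2 and 3 they numbered 21, 24 and 17). Donor groups numbered 33, and 13 to 25 with 1 library left out (14, 14 and 20 without laying replicates 1, 2 and 3, and 25, 20 and 13 without virgin replicates 1, 2 and 3), and 50 with only the laying and virgin libraries. With the replicate block, 24 acceptor groups, 20 donor groups, 375 higher and 298 lower circRNAs passed. A separate check of pairing gave correlations of 0.0048, -0.064 and -0.0050 for same-numbered laying and virgin libraries. These are not correlations of the levels, which were 0.60 to 0.67 between a laying and a virgin library. In that check not every library correlated best with its own number, so the numbers were not taken as pairs. The uncalled ame_circ_0011723 (log2 -0.620) changed sign to 0.079 with the replicate block, and ranged from -4.214 to 0.092 with 1 library left out; it rests on 1 library of each group. The uncalled ame_circ_0009096 (log2 -0.089) was at 0.00089 without a filter and ranged from -0.283 to 0.080 with 1 library left out. The 5 library-level differences kept their sign in every alternative; the read share of circRNAs spanning up to 500 nt moved most, from -3.61 to -1.63 with 1 library left out. With the LG2 locus with the most reads left out, an alternative chosen after seeing the data, the read share of circRNAs spanning over 10000 nt differed by 1.72 and the read-weighted median span by 97.7 nt (exact permutation p = 0.2). Of 71 named circRNAs, 54 kept both their call and the sign of their change in every alternative that tested them. The cause of these changes was not tested. A circRNA at 2 reads a library is at the limit of this depth.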

Other observations

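The balance of calls differed between chromosomes; the ones named here were chosen after their values were seen. On LG16, 19 of 106 tested circRNAs rose and 4 fell in laying ovaries, with a median log2 fold change of 0.46, and on LG2, 52 of 289 rose and 23 fell (0.31). Outside the LG2 locus between 4622669 and 4807227, which held 23 of these 52, 29 of 258 LG2 circRNAs rose (11.2%) and 23 fell (8.91%), with a median of 0.16. On LG11, 8 of 180 rose and 21 fell (-0.24), and on LG1, 48 of 500 rose and 67 fell (-0.25). Over all tested circRNAs 12.5% rose and 10.3% fell, with a median of 0. LG2 held 15.7% of reads in laying and 8.69% in virgin ovaries, LG1 12.1% and 16.1%, and LG7 5.42% and 8.71%, in the same order. Outside that locus, tested LG2 circRNAs held 6.78% of reads in laying and 7.19% in virgin ovaries. The circRNAs of a chromosome include families that share ends, so they are not independent.

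Of the called circRNAs, 200 lay in 46 loci with 3 or more calls. In the locus on the plus strand of LG1 from 19941352 to 20045296, 8 of 16 tested circRNAs fell and none rose, with a sum of 2802 ± 76.5 CPM in laying and 7582 ± 416 CPM in virgin ovaries (SD, n = 3 each). On the plus strand of LG12 from 6735589 to 6743431, 6 of 7 rose and none fell, with 6271 ± 497 CPM in laying and 1217 ± 59.1 CPM in virgin ovaries. On the minus strand of LG10 from 8636388 to 8637607, 4 of 5 fell, with 505 ± 95 CPM in laying and 2267 ± 82.9 CPM in virgin ovaries.

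At 4 of the 5 further shared ends with calls in both directions, chosen after their values were seen, the calls were as follows. From the LG4 acceptor at 4171999, ame_circ_0013881 (556 nt) averaged 832 CPM in laying and 320 CPM in virgin ovaries, while ame_circ_0013882 (22651 nt) averaged 7.5 CPM and 64.0 CPM. Of the laying libraries only replicate 1 listed ame_circ_0013882, so its laying mean is below the smallest level that any laying library lists. At the LG7 donor at 3196043, ame_circ_0017496 (933 nt) averaged 506 CPM in laying and 337 CPM in virgin ovaries, and ame_circ_0017490 (5414 nt) 341 CPM and 1089 CPM. At the LG10 donor at 4446416, ame_circ_0001267 (2162 nt) averaged 66.8 CPM in laying ovaries and was listed at 0 in virgin libraries, and ame_circ_0001268 (6293 nt) averaged 15 CPM in laying and 107 CPM in virgin ovaries. The laying mean of ame_circ_0001268 came from laying replicate 3 alone, and these are few reads. At the LG8 donor at 8546045, the longer ame_circ_0019201 (22003 nt) averaged 460 CPM in laying and 194 CPM in virgin ovaries, against 314 CPM and 653 CPM for ame_circ_0019200.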
